A study of Homo sapiens with 10 samples.

Results

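The 39 genes described here act late in the cell cycle, in G2, mitosis and cytokinesis. They were taken as a named list of late cell cycle genes from which kinesins, kinetochore genes and condensins were left out. On the array 34 of the 39 had a probe set annotated to that gene alone, out of 14232 genes with such a probe set. CCNF, SPAG5, RACGAP1, BORA and ARHGAP11A were read only by probe sets shared with another gene and have no value here. BIRC5 had several probe sets of its own and was read from the one with the highest mean. The cells were U2OS, an established human osteosarcoma line, and 2 groups of 5 arrays were compared: cells given PD0332991 for 4 h, and cells given the vehicle DMSO for 4 h. PD0332991 is palbociclib, an inhibitor of the kinases CDK4 and CDK6 that act with D-type cyclins. All cells had been plated at 25% density and grown for 30 h with 10% serum before treatment, and the labels give no step that synchronised them. The labels write the dose as 1 mM, a unit the arrays cannot check, and doses of this compound in culture are usually micromolar. They call the 5 arrays of each treatment biological replicates of 1 cell line. Array names in the labels fall into 2 sets with both treatments in each: array set 1 holds replicates 1 to 3, and array set 2 holds replicates 4 and 5.

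Transcripts of these genes are low in G1, build up through S phase and G2 and peak around mitosis. In quiescent and early G1 cells the DREAM complex, made of a pocket protein, an E2F repressor and the MuvB core, keeps them off. Later in the cycle MuvB joins B-MYB and then FOXM1, and the genes are transcribed, while E2F activators serve the earlier G1/S genes once cyclin D and cyclin E kinases have inactivated RB. Because such transcripts are present in a part of a dividing culture at any time, fewer cells in G2 and less RNA per cell cannot be told apart in a bulk sample.

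Expression values are log2 levels per gene. The array medians lay between 6.95 and 7.06, and precision is set by having 5 arrays a treatment. DMSO replicate 1 stood apart from the other arrays, with an interquartile range of 3.18 on the log2 scale against 3.32 to 3.68. Values without it are given below for some of the genes and groups. Of 8 osteosarcoma and mesenchymal markers, SPARC, VIM, FN1, COL1A1 and CDH2 lay above the upper quartile on all 10 arrays, while COL1A2 and ALPL lay below the array median on all 10. Of 5 measured epithelial and 5 measured blood markers, 0 lay above the upper quartile on all 10 arrays. All 34 late cell cycle genes had a mean above the median of all probe sets, and 29 lay above the upper quartile of 8.69. Their means ran from 7.99 to 12.30.

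After 4 h of PD0332991 none of the 34 genes passed the test. limma with array set as a covariate called 0 of them at an adjusted p under 0.05, where the adjustment ran over all 21980 probe sets and the share of probe sets called was 0.05%. At an unadjusted p under 0.05 TROAP and GTSE1, which encode proteins of the mitotic spindle, were lower and 0 genes were higher, against 2.76% of all probe sets lower and 1.41% higher. Of the 34 log2 fold changes 20 were negative and 14 positive, with a median of -0.04. Among all 14232 genes 55.3% were negative and the median was -0.02. The adjusted p was 1.00 for every one of the 34 genes. The estimates ran from -0.32 for PIMREG to 0.35 for CKS2.

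These intervals show how large a change the arrays leave possible. For 28 of the 34 genes the 95% confidence interval lay wholly inside a 1.5-fold change either way. The same held for 12062 of the 14232 genes with a probe set of their own, and for 74.4% of all probe sets. The 6 genes with wider intervals were CDK1, CKS2, MELK, HMMR, DEPDC1 and PIMREG. For CDK1 the interval ran from -0.81 to 0.51 on the log2 scale, and for CKS2 from -0.27 to 0.98. A p that misses the threshold does not show that a gene kept its level.

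**Figure D1:**
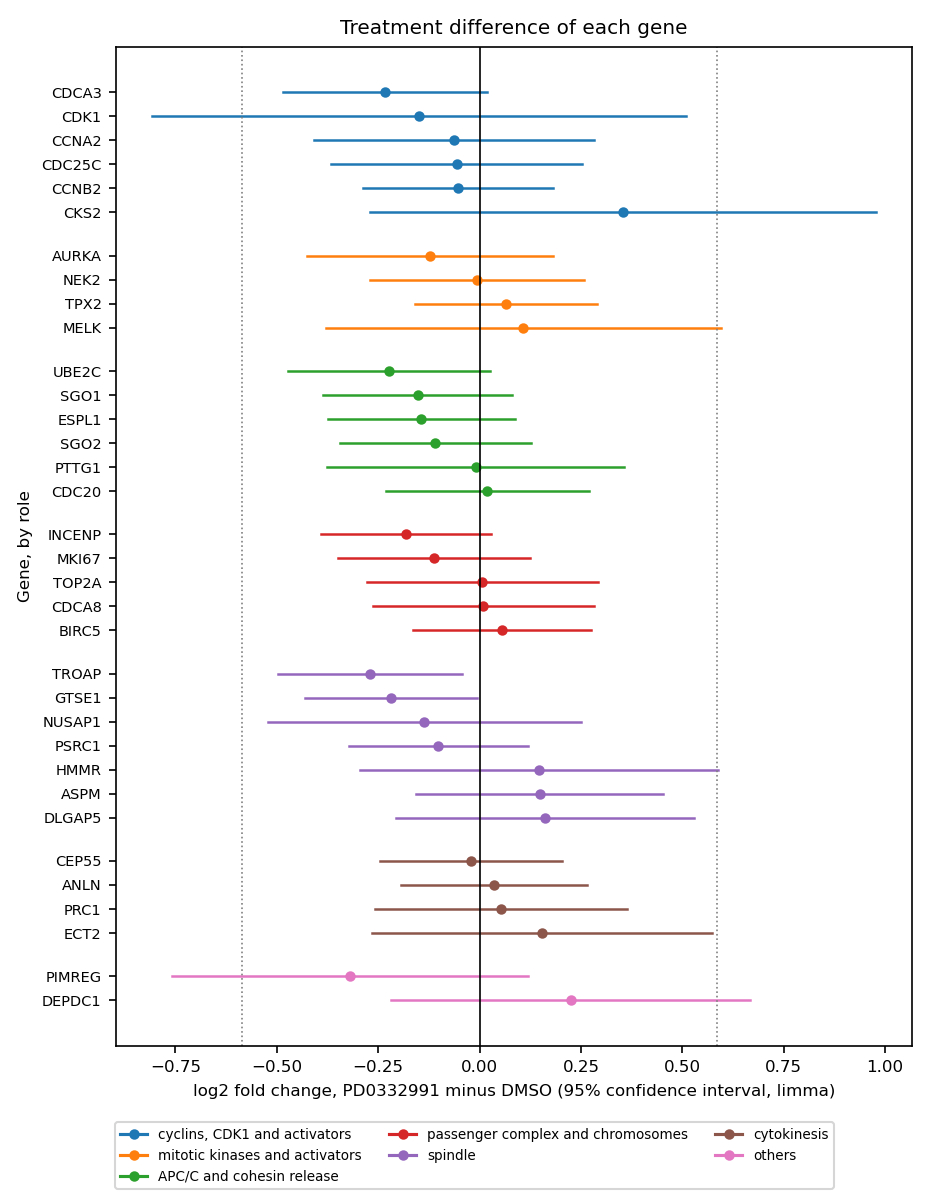
Log2 fold change of each of the 34 genes, PD0332991 minus DMSO, with its 95% confidence interval from limma (n = 5 arrays per treatment), grouped and coloured by role. Dotted lines mark a 1.5-fold change. The points lie between -0.32 and 0.35, and 32 of the 34 intervals contain 0, all but those of TROAP and GTSE1.

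Promoter sequences of late and G1/S genes are shown because the 2 kinds of gene are known to be controlled through different elements. MuvB binds the cell cycle genes homology region, or CHR, whose letters are TTTGAA or TTCGAA, and the factor NF-Y binds CCAAT boxes, which often stand a few turns of the helix upstream. RefSeq promoters of GRCh38.p14, from 250 bases before to 50 after the start, were matched by symbol for 32 of the 39 genes. AURKA, BIRC5, UBE2C, TPX2, RACGAP1, TROAP and PIMREG had no entry. The stretches below are the 120 bases just before the start, 5′ to 3′ on the gene's strand. Capitals mark a CCAAT box (CCAAT or ATTGG), a CHR (the letters above, or TTCAAA where read from the other strand) or E2F letters (TTTGGCGC, TTTCGCGC, TTTCCCGC, TTTGGCGG or their reverse complements). The genes were picked by hand as examples. The first 7 are late cell cycle genes, each with a CHR and a CCAAT box. The last 3 are G1/S genes, each with E2F letters. E2F2 and CDC25A passed the test (limma adjusted p = 0.00289 and 0.00911). DTL had a log2 fold change of -1.15, and its p is not given here.
CCNB2: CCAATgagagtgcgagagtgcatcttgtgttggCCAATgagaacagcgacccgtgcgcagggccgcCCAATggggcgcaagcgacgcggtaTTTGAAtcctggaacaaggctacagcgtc
CDC20: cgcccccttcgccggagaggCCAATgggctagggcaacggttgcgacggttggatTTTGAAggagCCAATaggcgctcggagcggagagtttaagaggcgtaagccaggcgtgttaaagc
CKS2: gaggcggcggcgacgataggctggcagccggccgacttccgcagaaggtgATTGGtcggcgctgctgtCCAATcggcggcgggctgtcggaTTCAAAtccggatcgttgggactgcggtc
PRC1: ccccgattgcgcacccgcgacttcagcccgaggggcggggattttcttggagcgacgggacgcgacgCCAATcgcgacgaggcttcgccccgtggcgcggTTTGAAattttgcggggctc
INCENP: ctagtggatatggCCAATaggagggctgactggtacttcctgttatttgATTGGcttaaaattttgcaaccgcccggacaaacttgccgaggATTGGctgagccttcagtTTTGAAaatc
GTSE1: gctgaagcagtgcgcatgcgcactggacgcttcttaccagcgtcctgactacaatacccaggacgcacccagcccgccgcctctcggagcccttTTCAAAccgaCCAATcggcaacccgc
ESPL1: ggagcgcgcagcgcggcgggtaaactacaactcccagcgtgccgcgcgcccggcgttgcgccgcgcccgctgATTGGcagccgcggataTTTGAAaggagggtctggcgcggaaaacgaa
E2F2: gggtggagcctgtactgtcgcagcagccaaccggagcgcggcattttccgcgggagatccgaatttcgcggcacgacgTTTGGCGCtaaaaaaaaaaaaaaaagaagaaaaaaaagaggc
CDC25A: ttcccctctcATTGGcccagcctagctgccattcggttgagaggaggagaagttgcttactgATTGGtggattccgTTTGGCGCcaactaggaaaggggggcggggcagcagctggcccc
DTL: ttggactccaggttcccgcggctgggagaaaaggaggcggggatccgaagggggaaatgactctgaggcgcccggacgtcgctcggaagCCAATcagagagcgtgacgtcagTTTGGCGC

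Positions are counted back from the start, the base before it being -1, and give the first base of each match. CCNB2, cyclin B2, lies at chr15:59105026-59105145 on the plus strand, with CHR letters at -29 and CCAAT boxes at -120, -87 and -54. CDC20, the activator of the anaphase-promoting complex, lies at chr1:43358861-43358980 on the plus strand, with CHR letters at -65 and CCAAT boxes at -100 and -55. CKS2, a CDK1-binding subunit, lies at chr9:89311075-89311194 on the plus strand, with CHR letters at -29 and CCAAT boxes at -70 and -52. PRC1, a midzone bundler, lies at chr15:90994536-90994655 on the minus strand, with CHR letters at -20 and a CCAAT box at -53. INCENP, the passenger scaffold, lies at chr11:62123891-62124010 on the plus strand, with CHR letters at -10 and CCAAT boxes at -107, -71 and -28. GTSE1, a microtubule-end protein, lies at chr22:46296750-46296869 on the plus strand, with CHR letters at -26 and a CCAAT box at -16. ESPL1, separase, lies at chr12:53268179-53268298 on the plus strand, with CHR letters at -31 and a CCAAT box at -48. The G1/S genes follow. E2F2, an E2F activator, lies at chr1:23531234-23531353 on the minus strand, with E2F letters at -42. CDC25A, the phosphatase that activates CDK2, lies at chr3:48188418-48188537 on the minus strand, with CCAAT boxes at -110 and -58 and E2F letters at -44. DTL, a substrate receptor of the ligase that degrades CDT1, lies at chr1:212035628-212035747 on the plus strand, with a CCAAT box at -31 and E2F letters at -8.

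A CHR match was found for 26 of the 32 late genes, or 81.2%, against 17.5% of the 11386 array genes (those read by a probe set of their own) that had a promoter entry. A CCAAT box was found for 28 of 32, or 87.5%, against 43.0%, and 24 of 32 had both, against 7.32%. E2F letters were found for CDK1 and NUSAP1, or 6.25%, against 5.66%. Of the 34 E2F and G1/S genes with an entry, a CHR match was found for 2 (5.88%) and E2F letters for 23 (67.6%). CCAAT boxes were found for 23 of those 34 too (67.6%). Of 35 other late cell cycle genes with an entry, 74.3% had a CHR match and 65.7% a CCAAT box. Of the 32 genes 5 had several promoter entries and count if any one matches. In 17 of the 32 late genes a CHR match started within the last 50 bases before the start, as it did in 3.03% of the array genes and in 0 of the 34 G1/S genes. A match is a description of letters, not a binding site, and CCNA2, NEK2, PTTG1, SGO2, MELK and ARHGAP11A had no CHR match in this window.

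**Figure D2:**
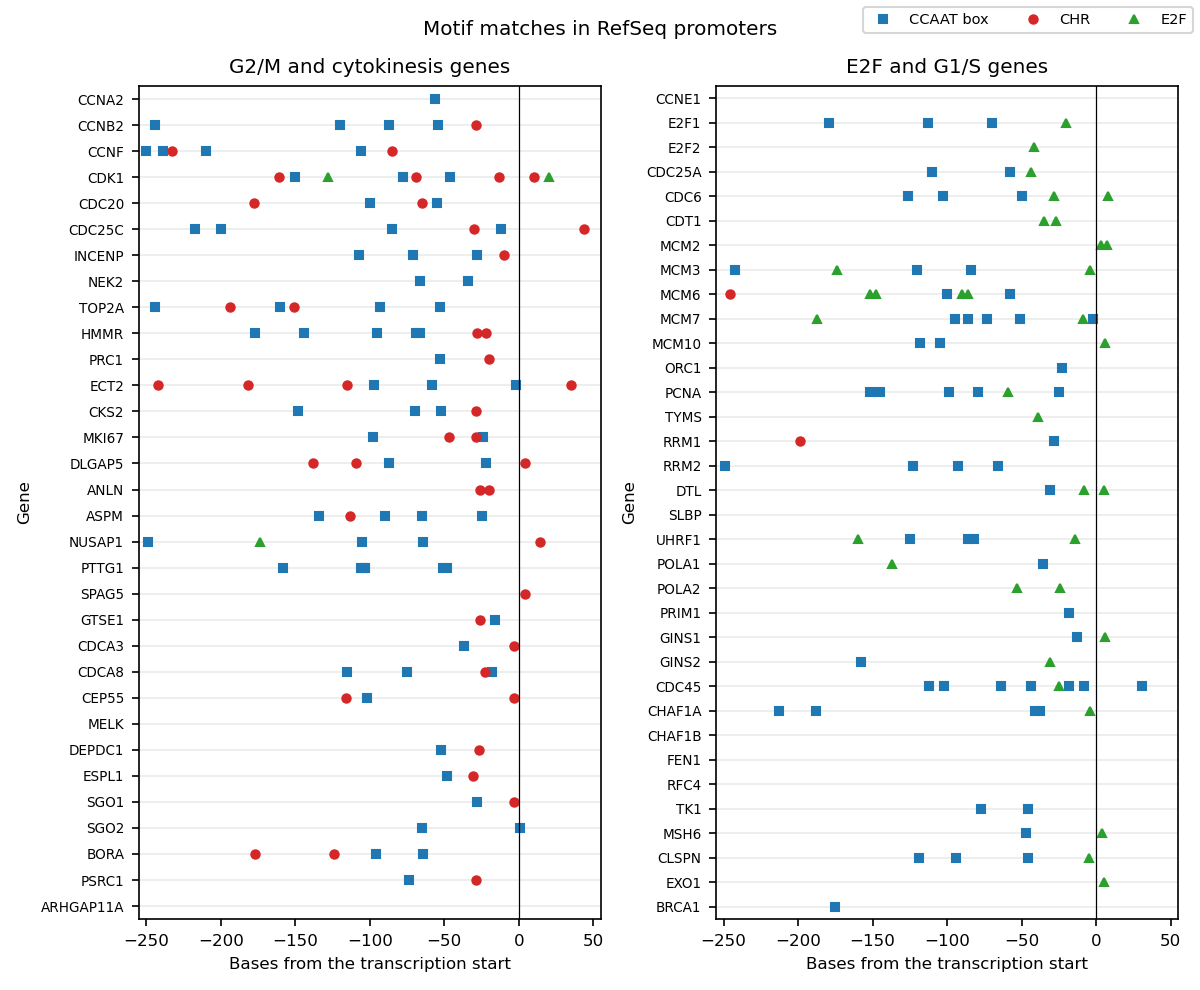
Positions of motif matches from 250 bases before to 50 after the transcription start in 32 late cell cycle genes (left) and 34 E2F and G1/S genes (right), 1 row per gene, all promoter entries of a gene together. CHR matches (circles) are found for 26 of 32 late genes and 2 of 34 G1/S genes, and E2F letters (triangles) for 2 and 23.

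Cyclins and CDK1 drive entry into mitosis. Of 6 measured genes 5 had a negative log2 fold change and 1 a positive one, with a median of -0.06 and 0 called; without DMSO replicate 1 the median was -0.10 and 4 were negative. CDK1 encodes the kinase of mitotic entry, and its log2 levels were 9.11, 8.79, 9.18, 8.33 and 9.13 in PD0332991 replicates 1 to 5, against 8.005, 9.59, 9.51, 9.04 and 9.13 in DMSO replicates 1 to 5. The DMSO arrays spanned the whole treated range because replicate 1 was far below the others and replicates 2 and 3 far above, and the log2 fold change was -0.15 ± 0.30 (SE, n = 5, limma). Without DMSO replicate 1 CDK1 had a log2 fold change of -0.45, one of 4 genes then lower at an unadjusted limma p under 0.05, with ESPL1, INCENP and TROAP, where 5.86% of all probe sets were under it in either direction.

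CCNA2 encodes cyclin A2, the partner of CDK2 in S phase and of CDK1 in G2. Its levels were 11.12, 10.997, 11.31, 10.46 and 10.72 with PD0332991, against 10.62, 11.35, 11.28, 10.86 and 10.81 with DMSO, and the log2 fold change was -0.06 ± 0.16 (SE), or -0.21 without DMSO replicate 1. High and low arrays occurred in both treatments, and array set 1 lay above array set 2 in all but DMSO replicate 1. CCNB2, cyclin B2, was at 10.14, 10.09, 10.50, 9.95 and 10.12 with PD0332991, against 10.38, 10.23, 10.38, 10.05 and 10.01 with DMSO, a log2 fold change of -0.05 ± 0.11. The treated arrays of CCNB2 contained the DMSO range. CDCA3, an F-box-like protein that promotes loss of the CDK1 inhibitor WEE1, was among the 8 smallest p values.

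CDCA3 levels were 9.57, 9.39, 9.73, 9.21 and 9.15 with PD0332991, against 10.08, 9.62, 9.70, 9.39 and 9.44 with DMSO. Both set 2 treated arrays lay below both set 2 DMSO arrays, while in set 1 PD0332991 replicate 3 was above DMSO replicates 2 and 3. Its log2 fold change was -0.23 ± 0.11 (SE, n = 5), or -0.16 without DMSO replicate 1, which was the highest of the 10 arrays. CDC25C, the phosphatase that activates CDK1, had a log2 fold change of -0.06 ± 0.14 (SE). CKS2, a small subunit that binds CDK1, had 0.35 ± 0.28 and rested on DMSO replicate 1, without which it was 0.05.

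Among the mitotic kinases and their activators 2 of 4 measured genes had negative and 2 positive log2 fold changes, with a median of 0.03. Without DMSO replicate 1 the median was -0.06 and 3 of 4 were negative. AURKA, the kinase of centrosome maturation and spindle assembly, was at 9.96, 9.62, 10.10, 9.18 and 9.72 with PD0332991, against 9.84, 10.16, 10.07, 9.54 and 9.59 with DMSO. PD0332991 replicate 4 was the lowest array and the other treated arrays lay among the DMSO arrays, for a log2 fold change of -0.12 ± 0.14 (SE, n = 5). TPX2, which activates AURKA on spindle microtubules, had a log2 fold change of 0.07 ± 0.10. NEK2, a kinase of centrosome separation, had -0.01 ± 0.12. MELK, a kinase transcribed with the mitotic genes, had 0.11 ± 0.22, and turned to -0.12 without DMSO replicate 1, its lowest array.

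The anaphase-promoting complex and the cohesin it releases were represented by 6 genes. Of these 5 had a negative log2 fold change, with a median of -0.13 and 0 called. Without DMSO replicate 1 all 6 were negative, with a median of -0.13. CDC20, the activator of the complex in mitosis, was at 12.36, 12.29, 12.26, 12.36 and 12.29 with PD0332991, against 11.93, 12.34, 12.28, 12.33 and 12.58 with DMSO. Its treated arrays lay close together and inside the DMSO range. The log2 fold change was 0.02 ± 0.11 (SE, n = 5), or -0.06 without DMSO replicate 1. PTTG1, the separase inhibitor securin, was at 12.00, 12.04, 11.76, 11.58 and 12.12 with PD0332991, against 12.01, 12.49, 11.83, 11.54 and 11.67 with DMSO. The groups overlapped, with DMSO replicate 2 the highest array, and the log2 fold change of -0.01 ± 0.16 came from -0.18 in array set 1 and 0.25 in array set 2.

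UBE2C, the ubiquitin-conjugating enzyme of the complex, was at 9.20, 9.02, 9.04, 9.32 and 9.36 with PD0332991, against 9.66, 9.20, 9.17, 9.51 and 9.51 with DMSO. In array set 2 both treated arrays were below both DMSO arrays, and in set 1 PD0332991 replicate 1 was above DMSO replicate 3. Its log2 fold change was -0.22 ± 0.11 (SE, n = 5) and -0.13 without DMSO replicate 1. ESPL1, the protease separase, was at 8.49, 8.32, 8.40, 8.59 and 8.47 with PD0332991, against 8.28, 8.57, 8.73, 8.67 and 8.75 with DMSO, with a log2 fold change of -0.14 ± 0.10, or -0.21 without DMSO replicate 1. The ESPL1 treated arrays were close together and inside the DMSO range, whose lowest array was replicate 1.

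SGO1, which shields centromeric cohesin until anaphase, was at 8.63, 8.70, 8.97, 8.39 and 8.67 with PD0332991, against 9.04, 8.84, 8.93, 8.75 and 8.57 with DMSO. The groups overlapped, and the log2 fold change was -0.15 ± 0.10 (SE, n = 5). Its relative SGO2 had -0.11 ± 0.11.

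Genes of the chromosomal passenger complex and the chromosome surface had a median of 0.01, with 2 of 5 negative. Without DMSO replicate 1 the median was -0.06 and 5 of 5 were negative. INCENP, the scaffold of the passenger complex, was at 9.27, 9.26, 9.26, 9.23 and 9.30 with PD0332991, against 9.38, 9.69, 9.51, 9.28 and 9.34 with DMSO. Its treated arrays lay close together, and DMSO replicate 4 was the only DMSO array inside their range. The log2 fold change was -0.18 ± 0.09 (SE, n = 5), from -0.27 in array set 1 and -0.05 in array set 2.

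BIRC5, the passenger protein survivin, was at 10.83, 10.61, 10.74, 10.80 and 10.75 with PD0332991, against 10.42, 10.71, 10.79, 10.79 and 10.76 with DMSO. The groups overlapped, with DMSO replicate 1 below all others. The log2 fold change was 0.06 ± 0.10, or -0.01 without that array. Its dimmer probe set read 8.46, 8.42, 9.14, 8.49 and 8.21 with PD0332991, against 10.75, 8.38, 8.34, 8.03 and 8.03 with DMSO, so that DMSO replicate 1 was the lowest array by one probe set and the highest by the other. CDCA8, the passenger protein borealin, had 0.01 ± 0.12.

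TOP2A, the topoisomerase that untangles sister chromatids, was at 11.14, 11.06, 11.49, 10.50 and 10.93 with PD0332991, against 11.03, 11.30, 11.39, 10.69 and 10.68 with DMSO. Set 1 arrays were above set 2 arrays in both treatments, and the log2 fold change was 0.01 ± 0.13 (SE, n = 5). MKI67, the proliferation marker Ki-67 that coats mitotic chromosomes, was at 10.55, 10.93, 10.88, 10.28 and 10.56 with PD0332991, against 10.93, 10.93, 10.92, 10.58 and 10.40 with DMSO, a log2 fold change of -0.11 ± 0.11. Its groups overlapped.

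Spindle and microtubule-binding genes held the estimates with the smallest p. Of 7 measured genes 4 were negative and 3 positive, with a median of -0.10. TROAP, a protein needed for spindle assembly, was at 9.61, 9.38, 9.57, 9.18 and 9.08 with PD0332991, against 10.01, 9.68, 9.64, 9.40 and 9.44 with DMSO. It was the 1 gene of the 34 whose treated arrays lay below every DMSO array of their own set, an order that 1.45% of all probe sets had. Its log2 fold change was -0.27 ± 0.10 (SE, n = 5, 95% confidence interval -0.50 to -0.04, limma adjusted p = 1.00), a level 1.21-fold lower with PD0332991. It was -0.26 in array set 1, -0.29 in array set 2 and -0.21 without DMSO replicate 1, which was the highest array.

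GTSE1, which binds growing microtubule ends and restrains p53, was at 9.74, 9.63, 9.93, 9.33 and 9.41 with PD0332991, against 10.07, 9.83, 9.93, 9.60 and 9.70 with DMSO. Its set 2 treated arrays were both below the set 2 DMSO arrays, while in set 1 PD0332991 replicate 3 was above DMSO replicate 2. The log2 fold change was -0.22 ± 0.10 (95% confidence interval -0.43 to -0.01, limma adjusted p = 1.00), and -0.19 without DMSO replicate 1, where its unadjusted p no longer lay under 0.05. NUSAP1, which bundles spindle microtubules, had -0.14 ± 0.17, or -0.25 without DMSO replicate 1, and PSRC1, a microtubule-binding protein, had -0.10 ± 0.10. The other 3 spindle genes had positive estimates whose intervals contained 0. HMMR, a spindle protein also known as a hyaluronan receptor, had 0.15 ± 0.20. ASPM of the spindle poles had 0.15 ± 0.14, and DLGAP5, which stabilises kinetochore fibres, had 0.16 ± 0.17 (SE, n = 5). All 3 were smaller without DMSO replicate 1, at 0.06 for HMMR, 0.06 for ASPM and 0.02 for DLGAP5.

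Cytokinesis genes had a median log2 fold change of 0.04 over 4 measured members, 1 negative and 3 positive. Without DMSO replicate 1 the median was -0.01 and 3 of the 4 were negative. PRC1 bundles midzone microtubules and had 0.05 ± 0.14 (SE, n = 5), or -0.07 without DMSO replicate 1. ECT2, the exchange factor that activates RhoA at the equator, had 0.15 ± 0.19, or 0.07 without that array. ANLN is a scaffold of the contractile ring and had 0.04 ± 0.10. All 4 intervals lay inside a 1.5-fold change, including that of CEP55, which recruits the abscission machinery and had -0.02 ± 0.10. PIMREG, a mitotic protein that binds the clathrin assembly factor PICALM, was at 9.85, 9.69, 9.07, 10.14 and 10.02 with PD0332991, against 10.49, 9.85, 9.62, 10.07 and 10.34 with DMSO, and DEPDC1 had a log2 fold change of 0.22 ± 0.20, or 0.05 without DMSO replicate 1. The largest negative estimate of the 34, -0.32 ± 0.20 for PIMREG, had PD0332991 replicate 3 as its lowest array and DMSO replicate 1 as its highest. PIMREG had -0.16 without DMSO replicate 1.

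**Figure D3:**
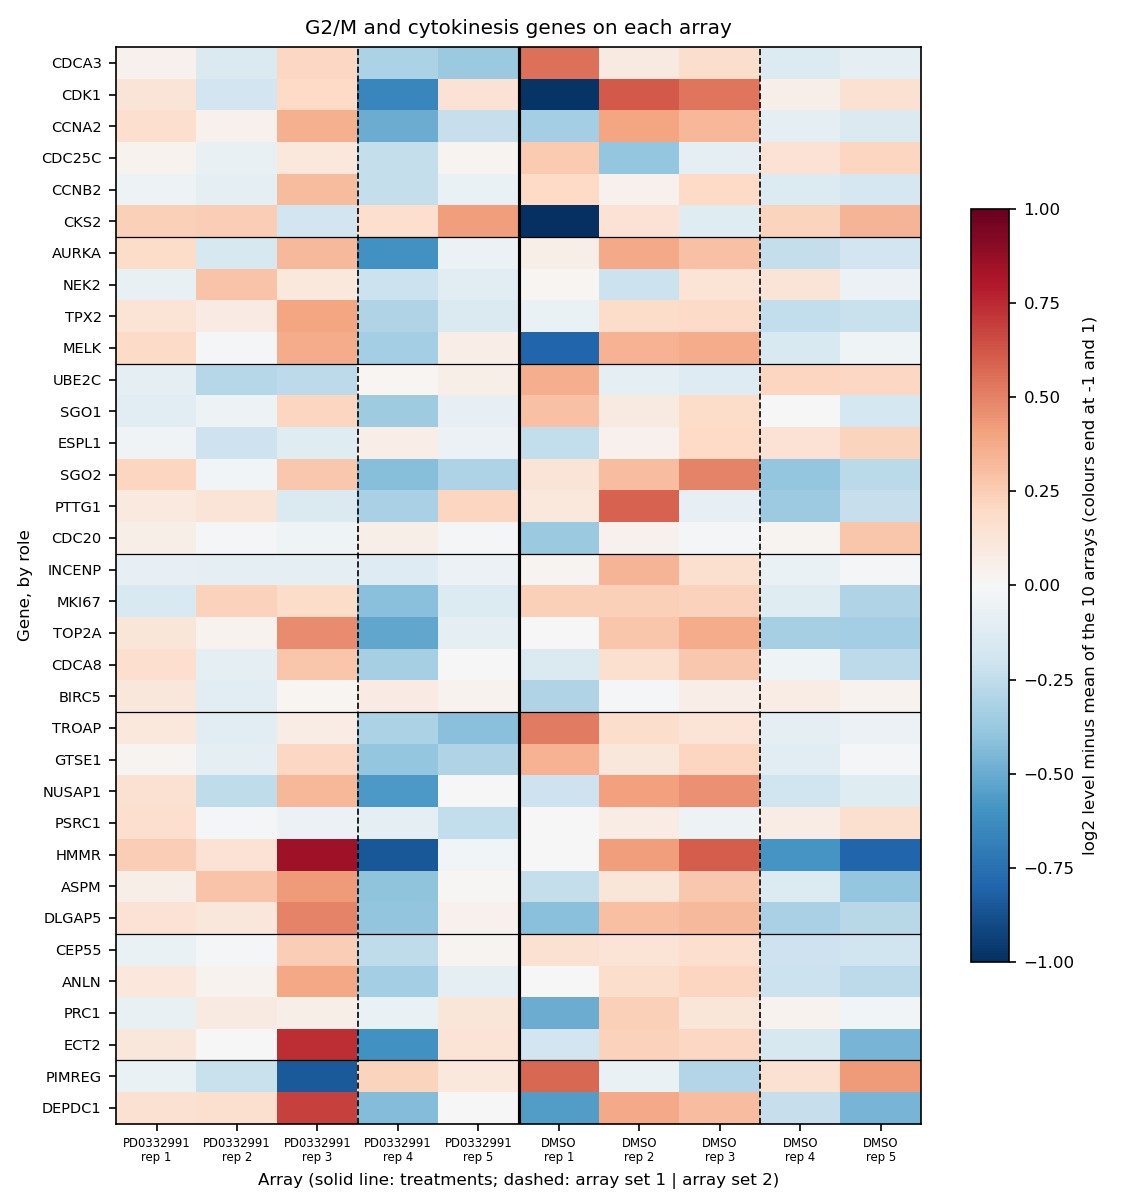
Log2 level of each of the 34 genes on each array minus its mean over the 10 arrays, with PD0332991 replicates on the left and DMSO replicates on the right. Most genes are higher (red) in array set 1 than in array set 2 under both treatments, and DMSO replicate 1 holds both strongly low genes (CDK1, CKS2, MELK) and high ones (CDCA3, TROAP, PIMREG).

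The comparison lists were chosen with earlier results of these data known. Of 33 measured E2F and G1/S genes 32 had a negative log2 fold change. limma called 6 lower and 0 higher, where 0.05% of all probe sets were called. The median was -0.39, with E2F2 at -1.01, CCNE1 at -0.95, CDC25A at -1.09 and CCNE2 at -1.89. Among 30 other measured late cell cycle genes, including FOXM1 and kinesin and kinetochore genes, 20 were negative and the median was -0.10. limma called 0 of them. At an unadjusted p under 0.05, 3 were lower and 0 higher, against 2.76% and 1.41% of all probe sets. HJURP, the chaperone that loads the centromeric histone, had -0.37 ± 0.09 (SE, n = 5, limma adjusted p = 0.592), AURKB, the kinase of the passenger complex, -0.22 ± 0.09, HMGB2, a chromatin protein, -0.45 ± 0.20 and KPNA2, a nuclear import receptor, -0.36 ± 0.23.

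Of 7 measured MuvB, B-MYB and DREAM subunits 3 were negative and the median was 0.02. limma called 0, with 1 lower at an unadjusted p under 0.05, against 2.76% of all probe sets. RBL1, the pocket protein p107, had -0.48 ± 0.14 (limma adjusted p = 0.686) and B-MYB itself, MYBL2, -0.06 ± 0.08. E2F5 had 0.15 ± 0.15 and E2F4 -0.06 ± 0.11. Of 11 measured subunits and cofactors of the anaphase-promoting complex 6 were negative, 0 were called (limma, 0 at an unadjusted p under 0.05) and the median was -0.03, with FBXO5, the inhibitor of the complex, at -0.25 ± 0.16, FZR1 at -0.14 ± 0.11, ANAPC4 at -0.29 ± 0.19 and ANAPC10 at 0.36 ± 0.23 (SE, n = 5).

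**Figure D4:**
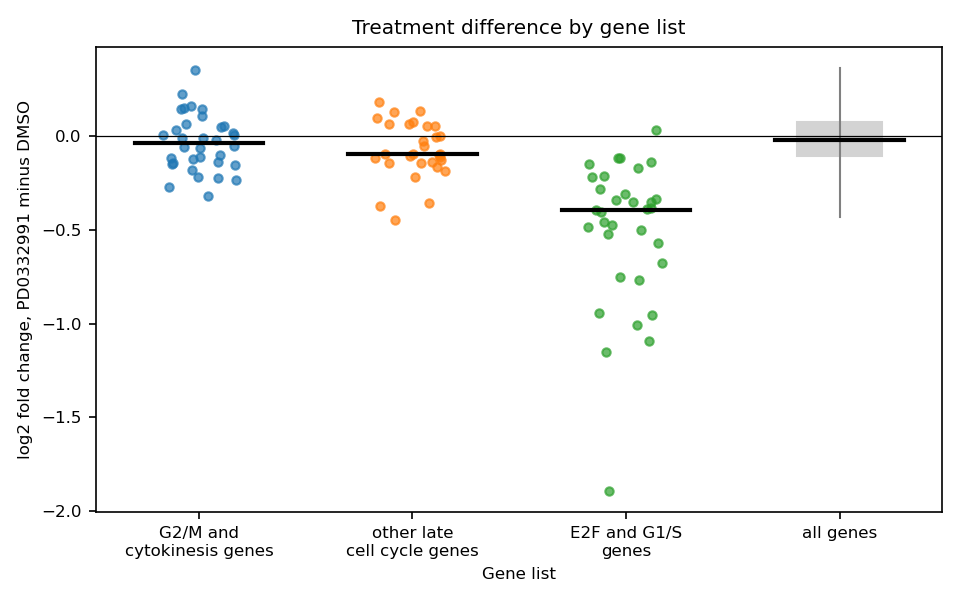
Log2 fold changes, PD0332991 minus DMSO, of 34 G2/M and cytokinesis genes, 30 other late cell cycle genes and 33 E2F and G1/S genes (1 point per gene, black bar at the median), beside all 14232 genes (box from the lower to the upper quartile, line from the 0.01 to the 0.99 quantile, -0.43 to 0.37). The late genes centre on -0.04 and -0.10, and the G1/S genes on -0.39.

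Over the 34 genes the median size of the log2 difference was 0.36 between array sets and 0.12 between treatments, beside a median SD of 0.19 within a treatment and set. The difference between sets was the larger for 29 of the 34, a count that was not made over all genes. Among all 14232 genes the median size was also larger between sets, at 0.14, than between treatments, at 0.09. In array set 2, 26 of the 34 were lower than in array set 1, or 76.5%, with a median difference of -0.28, while 38.4% of all genes were lower and their median was 0.05. limma called SGO2 and HMMR lower in array set 2 and 0 genes higher, where 0.965% of all probe sets were called lower and 2.57% higher. This comparison was chosen after the values were seen.

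HMMR was at 7.52 and 8.35 in PD0332991 replicates 4 and 5 and at 7.78 and 7.58 in DMSO replicates 4 and 5. In array set 1 it was at 8.62, 8.52 and 9.23 with PD0332991 and at 8.37, 8.79 and 8.98 with DMSO. All 4 arrays of set 2 lay below all 6 of set 1, though by little, at 8.35 against 8.37 for the nearest arrays. TOP2A, TPX2 and ANLN had the same order without a call, and its share over all probe sets was not counted. The HMMR difference was -0.94 ± 0.20 (SE, limma adjusted p = 0.0368). SGO2 differed by -0.58 ± 0.11 (limma adjusted p = 0.0227), with set 2 between 7.97 and 8.13 and set 1 between 8.36 and 8.89. UBE2C, PIMREG and CKS2 were among the genes with positive differences, at 0.21, 0.38 and 0.48, without a call.

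How many genes this comparison called depended on single arrays. Without DMSO replicate 1 it called 9 of the 34 lower and UBE2C higher, while calls over the 21980 probe sets numbered 618 lower and 1187 higher, against 212 and 564 with all arrays. Without PD0332991 replicate 1, 3 or 4 or DMSO replicate 4 or 5 it called 0 lower. Over all probe sets those fits called 109, 79, 20, 15 and 12 lower. The count was 1 without PD0332991 replicate 5 or DMSO replicate 2 or 3, where 80, 126 and 73 of all probe sets were called lower. The median over the 34 genes stayed between -0.34 and -0.23 in all 10 fits that left out 1 array. The other late cell cycle genes had a median set difference of -0.25, and the E2F and G1/S genes -0.12. The labels do not say what the array name stands for, so culture, extraction and hybridisation cannot be told apart.

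**Figure D5:**
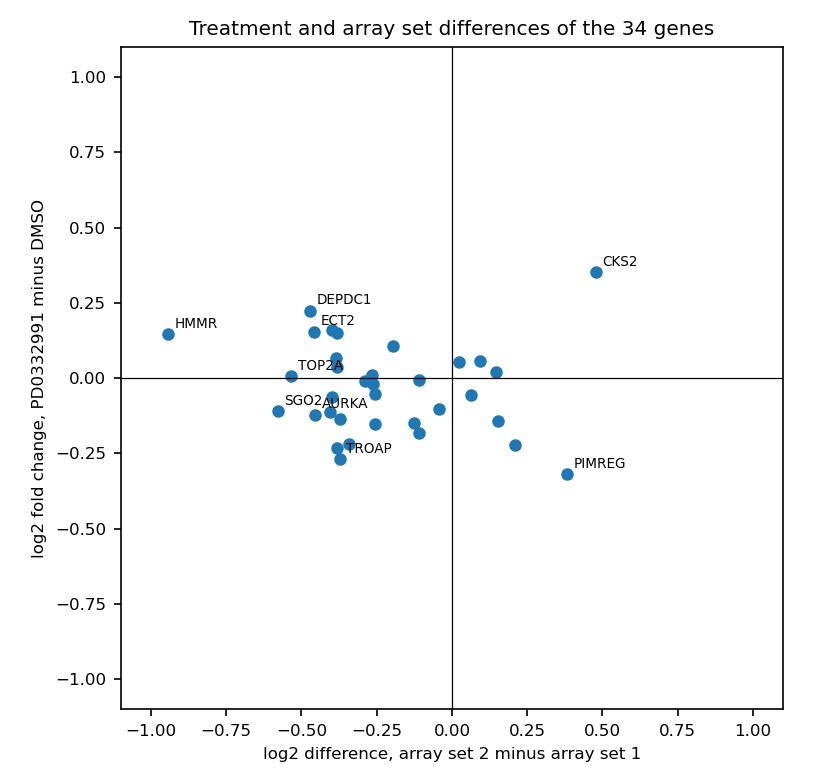
Log2 difference between array sets (horizontal, set 2 minus set 1) against the log2 fold change between treatments (vertical, PD0332991 minus DMSO) for the 34 genes, 1 point per gene, on equal axes. The points spread from -0.94 to 0.48 along the horizontal axis and from -0.32 to 0.35 along the vertical one.

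The median over the 34 genes of the level minus the gene's mean over all arrays was 0.11, -0.02, 0.21, -0.32 and -0.02 in PD0332991 replicates 1 to 5, against -0.0047, 0.18, 0.20, -0.12 and -0.13 in DMSO replicates 1 to 5. PD0332991 replicate 4 lay below every DMSO array and PD0332991 replicate 3 above every one, while the other treated arrays lay among them. PD0332991 replicate 3 was the highest treated array for 21 of the 34 genes and PD0332991 replicate 4 the lowest for 24. Over all genes the same medians ran from -0.11 in PD0332991 replicate 3 to 0.10 in DMSO replicate 1, so that PD0332991 replicates 3 and 4 deviated in opposite directions for the late genes and for all genes. DMSO replicate 1 was the lowest DMSO array for 11 of the 34 genes and the highest for 8.

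Treatment differences were also set side by side within each array set. The median log2 fold change of the 34 genes was 0.01 in array set 1 and -0.04 in array set 2. The limma interaction of treatment with array set had an unadjusted p under 0.05 for 0 of the 34 genes and for 562 of the 21980 probe sets, and none passed after adjustment. Without PD0332991 replicate 4 the median was 0.01 and 14 of the 34 were negative. Without DMSO replicate 1 it was -0.07 with 26 negative, where the median of all genes was 0.01 and 6664 of the 14232 were negative.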

How the data were processed

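RNA from U2OS cells was measured on 10 exon arrays, 5 per treatment. The deposited values are log2 expression per probe set, made by the authors with RMA in Partek on hg18, per the submitters' processing notes, and versions are not given in the sources used here. Of 21980 probe sets 14432 had 1 symbol in the platform annotation, 2408 several and 5140 none. A gene with several was read from the one with the highest mean. Treatments were compared with limma 3.58.1 in R 4.3.3 (lmFit, eBayes, 2-sided, array set as covariate, Benjamini-Hochberg over all probe sets, threshold 0.05), checked on simulated data. Figures were drawn with Matplotlib 3.10.9 in Python 3.11.15. Every array's values were to be given for the 8 members with the smallest unadjusted p and 9 chosen by name, and up to 4 genes by smallest p from each comparison list. The members and lists were chosen with earlier results of these data known. Whether the 5 replicates came from separate cultures rests on the label alone. Alternatives were normalization, array weights, filters, variance models, the covariate, replicate blocks, array sets alone, the mean over probe sets and leaving out each array.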

Additional observations from a re-analysis of the deposited data

Results flagged for a closer look

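In 5 DMSO arrays, replicate 1 lay far from the others for 2 of the 34 genes, its gap to the nearest array exceeding 0.71 of the group's range (Dixon's limit). BIRC5 was at 10.42 there, and the nearest DMSO array was at 10.71. CKS2 was at 9.03, and the nearest DMSO array was at 10.38. Over the 68 groups of 5 arrays tested these were the 2 found, and chance gives about 1 in 20.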

How the results depend on the processing

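Over 21 alternatives 0 of the 34 genes passed limma's adjusted threshold in any, the smallest adjusted p being 0.425. In array set 1 alone and in array set 2 alone 0 of all 21980 probe sets passed. The median log2 fold change lay between -0.09 and 0.01, and between -0.08 and 0.01 when 1 array was left out. Genes at an unadjusted p under 0.05 numbered 2 in the reported fit (4.17% of all probe sets in either direction). They numbered 0 without the array set covariate (3.2% of all probe sets), in array set 1 alone (2.85%) and in array set 2 alone (5.78%). The count was 7 with array weights (7.93% of all probe sets), and 0 to 4 when 1 array was left out (3.05% to 5.86%). With array weights 31 genes were lower, against 20, while the median over all probe sets was 0.01. That fit gave DMSO replicate 1 the lowest weight, 0.147. With the replicate number as a block the count at an unadjusted p under 0.05 was 4 (5.39% of all probe sets). With each treatment's mean removed, the deviations of same-numbered arrays correlated at 0.0354 to 0.541. With array set means removed too, the correlation ran from -0.0546 to 0.403. Over the 34 genes alone it ran from -0.465 for replicate 1 to 0.78 for replicate 3. Of the arrays, 2 of 5 PD0332991 and 2 of 5 DMSO correlated best with their own number, so the numbers were not taken to pair samples. Of 17 genes followed singly 10 kept their sign in all 21 alternatives. They include all 8 picked for the smallest p on these same arrays, a choice that favours a stable sign. Of the 9 chosen by name only AURKA and MKI67 kept theirs. TROAP had an unadjusted p under 0.05 in 15 of them and GTSE1 in 10. Genes called lower in array set 2, 2 in the reported fit, numbered 7 after quantile normalization or cyclic loess (389 and 390 of all probe sets lower, against 212). They numbered 0 in PD0332991 arrays alone or DMSO arrays alone (0 of all probe sets in either). When 1 array was left out they numbered 0 to 9 (12 to 618 of all probe sets lower). These alternatives were chosen after seeing the data. The causes were not tested.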
